A study of Mus musculus with 2 samples.

Results

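Small leucine-rich proteoglycans are secreted proteins with a horseshoe-shaped core of leucine-rich repeats that coat collagen fibrils. The 8 genes described here, Dcn, Bgn, Aspn, Lum, Fmod, Prelp, Ogn and Podn, were taken as a named list out of the 27998 genes in the count tables, chosen by name and with earlier results of these data known. They were measured by droplet-based single-cell RNA sequencing of the stromal vascular fraction of epididymal white adipose tissue from male C57BL/6J mice (strain label C57BL/6). There was 1 library from mice fed a low-fat diet (LFD, 10 kcal% fat) and 1 library from mice fed a high-fat diet (HFD, 60 kcal% fat), both for 24 wk from 6 wk of age. The diets are those of each sample's treatment field, since the free text on treatment names a low-fat diet for both samples. The study's methods elsewhere speak of mice 24 wk old, which leaves the age at collection unclear. All mice were of the same strain, with no transgene or other agent named, and how many animals went into a library is not given in the sources used here. Each diet has only 1 library, so the diets were compared without a test or p-value, and a difference between the libraries cannot be told apart from a difference between the animals or preparations behind them.

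Decorin (Dcn), biglycan (Bgn) and asporin (Aspn) form the class I branch of the family, and the core proteins of decorin and biglycan carry chondroitin or dermatan sulfate chains. Lumican (Lum), fibromodulin (Fmod) and prolargin (Prelp) belong to class II, in which keratan sulfate chains are common, osteoglycin (Ogn, also called mimecan) is a class III member, and podocan (Podn) stands in a more distant branch. The proteins bind collagen and tune how thick and how evenly spaced its fibrils become, and several of them also hold growth factors such as TGF-beta in the matrix. In connective tissue they are made mainly by fibroblasts.

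Several of the genes are neighbours in the genome (GRCm38). Dcn (chr10:97479609-97518143) and Lum (chr10:97565128-97572703) lie 46.98 kb apart with no protein-coding gene between them, as do Prelp (chr1:133910304-133921414) and Fmod (chr1:134037254-134048277) at 115.8 kb. Aspn (chr13:49544443-49567565) and Ogn (chr13:49608046-49624501) lie 40.48 kb apart with only Omd between them. Bgn (chrX:73483602-73495933) and Podn (chr4:108014791-108096445) stand alone. Podn overlaps Scp2 on the same strand, which makes its count less certain, and Aspn and Ogn overlap Cenpp on the opposite strand.

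The start regions of Bgn, Aspn and Ogn are shown because Bgn and Aspn were higher on HFD in fibroblasts while Ogn, the close neighbour of Aspn, was lower. The sequences are from RefSeq on GRCm38.p6, from 250 bases before to 50 bases after the start of the RefSeq gene, on the strand of the gene. Such a sequence was found for 6 of the 8 genes, all but Dcn and Lum. Capitals mark every match, on either strand, to 4 short motifs. The TATA box was searched as TATAAA. The AP-1 motif was searched as TGANTCA, where N is any base. The TEAD motif was searched as GGAATG. The Sp1 motif was searched as GGGCGG.
Bgn, chrX:73483351-73483650: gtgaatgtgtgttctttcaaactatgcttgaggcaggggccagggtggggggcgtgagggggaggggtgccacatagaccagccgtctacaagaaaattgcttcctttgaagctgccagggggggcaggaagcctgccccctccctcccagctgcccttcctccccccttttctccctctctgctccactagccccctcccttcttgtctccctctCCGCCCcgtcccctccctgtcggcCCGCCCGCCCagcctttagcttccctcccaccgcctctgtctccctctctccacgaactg
Aspn, chr13:49544193-49544492: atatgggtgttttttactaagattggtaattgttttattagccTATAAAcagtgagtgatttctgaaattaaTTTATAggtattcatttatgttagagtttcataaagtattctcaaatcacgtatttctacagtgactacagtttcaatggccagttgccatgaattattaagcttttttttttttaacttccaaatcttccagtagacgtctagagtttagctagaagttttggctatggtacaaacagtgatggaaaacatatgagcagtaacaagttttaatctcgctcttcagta
Ogn, chr13:49607765-49608064: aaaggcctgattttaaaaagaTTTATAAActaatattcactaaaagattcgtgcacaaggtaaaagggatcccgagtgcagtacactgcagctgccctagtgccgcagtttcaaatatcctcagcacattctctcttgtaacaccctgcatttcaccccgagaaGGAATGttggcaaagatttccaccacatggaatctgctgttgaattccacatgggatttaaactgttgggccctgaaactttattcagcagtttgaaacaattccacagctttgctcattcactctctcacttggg
In the Bgn region the capitals are 3 matches to the Sp1 motif on the reverse strand, the last 2 of which overlap. The Aspn region holds 2 matches to the TATA box, and the Ogn region holds 2 overlapping matches to the TATA box and 1 to the TEAD motif. Of 32851 promoter regions of the same length, 35.7% held the Sp1 motif, 13.6% the TATA box, 14.7% the TEAD motif and 7.81% the AP-1 motif. None of the 3 regions held the AP-1 motif, and a match is a run of letters and not a shown binding site.

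The count tables held 1113 barcodes and 7356278 unique molecular identifiers (UMIs, each a transcript counted once) on LFD, and 1144 barcodes and 8412325 UMIs on HFD. No barcode was shared between the libraries. At least 200 genes were seen in 1057 LFD and 1117 HFD barcodes, which were sorted into classes by gate genes. Fibroblasts had at least 10 Dcn UMIs and were split by the sum of Pi16, Dpp4 and Sema3c, genes of interstitial progenitors, at 3 UMIs. This gave 200 Pi16-low fibroblasts on LFD and 205 on HFD, and 144 and 72 Pi16-high fibroblasts. The other gates were Cdh5 and Cldn5 for endothelial cells (98 and 115 barcodes), C1qa, C1qb and C1qc for macrophages (229 and 320), mesothelial genes (33 and 14) and T cell genes (64 and 19), the last pair added to the rule. Levels are in CPM, the UMIs of a gene for every 1000000 UMIs of its class, with the exact Poisson 95% interval. Each transcript is counted at its 3′ end, so these levels are per transcript and were not divided by gene length. All intervals cover counting error only.

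The mural gate (Rgs5, Kcnj8, Abcc9 and Notch3) took in 64 barcodes on LFD and 116 on HFD, but 58 and 108 of them also met the endothelial gate. Only 5 and 6 barcodes met the mural gate alone. The 51 LFD and 92 HFD barcodes that met both of these gates and no other were therefore kept as a class of their own, a step chosen after the counts had been seen. They carried the endothelial marker list (Pecam1, Kdr, Gpihbp1, Tie1, Egfl7) at 5228 and 5044 CPM and the mural marker list (Pdgfrb, Cspg4, Acta2, Tagln, Myh11, Des) at 687.6 and 755.8 CPM, against 37.99 and 81.32 CPM for the mural list in endothelial barcodes. Their median depth was 13270 UMIs on LFD and 9029 on HFD, against 4318 and 3156 UMIs in endothelial barcodes, and Scrublet marked none of them as doublets. Whether they hold 1 cell or 2 was not tested.

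The other labels were set against marker lists. The fibroblast list (Pdgfra, Col1a1, Col1a2, Col3a1, Gsn, Serping1), which does not hold the gate gene, stood at 37065 and 45770 CPM in Pi16-low and 24995 and 34699 CPM in Pi16-high fibroblasts, against 121.6 and 260.6 CPM in macrophages. Mesothelial barcodes carried the fibroblast list too, at 9047 and 8087 CPM, above the mesothelial list (Upk3b, Msln, Krt19, Lrrn4, Nkain4, Wt1) at 6607 and 6806 CPM. The latter shares 4 genes with the mesothelial gate and is thus no check of it, but Krt19, which is not in the gate, stood at 1214 and 1132 CPM. In Pi16-low fibroblasts with no Fmod UMI, Krt19 stood at 0.72 and 0 CPM. All of the mesothelial barcodes had at least 10 Dcn UMIs as well, so the label rests on the gate and on Krt19, and the class was kept out of the fibroblasts. The T cell class went against its label on LFD, with 4906 CPM of the macrophage list against 636 CPM of the T cell list, and it enters only the likeness of patterns given last. Dcn was the gate of the fibroblasts, so its level is given without a claim between classes.

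Lum, Ogn and Podn lay almost wholly in fibroblasts and, for the last 2, in mesothelial cells, while Bgn and above all Aspn had a further place in the vessel barcodes, Prelp in both mesothelial and vessel barcodes, and Fmod was mainly mesothelial. Fibroblasts of both classes held 94.8% of the Lum UMIs on LFD and 94.4% on HFD. For Ogn the shares were 90.0 and 89.25%, for Podn 79.5 and 86.0%, for Bgn 82.3 and 79.8%, and for Prelp 73.5 and 78.0%. Mesothelial barcodes held 14.99 and 5.03% of the Prelp UMIs, and barcodes of the endothelial gate or of both vessel gates held 1.95 and 3.18% on LFD and 1.92 and 4.91% on HFD. Fibroblasts held only 49.9 and 49.3% of the Aspn UMIs, and 19.2 and 14.7% of the Fmod UMIs. Mesothelial barcodes, 33 and 14 in number, held 78.6 and 85.3% of all Fmod UMIs. The barcodes that met both the endothelial and the mural gate held 36.2 and 35.8% of the Aspn UMIs and 7.09 and 7% of the Bgn UMIs.

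**Figure D1:**
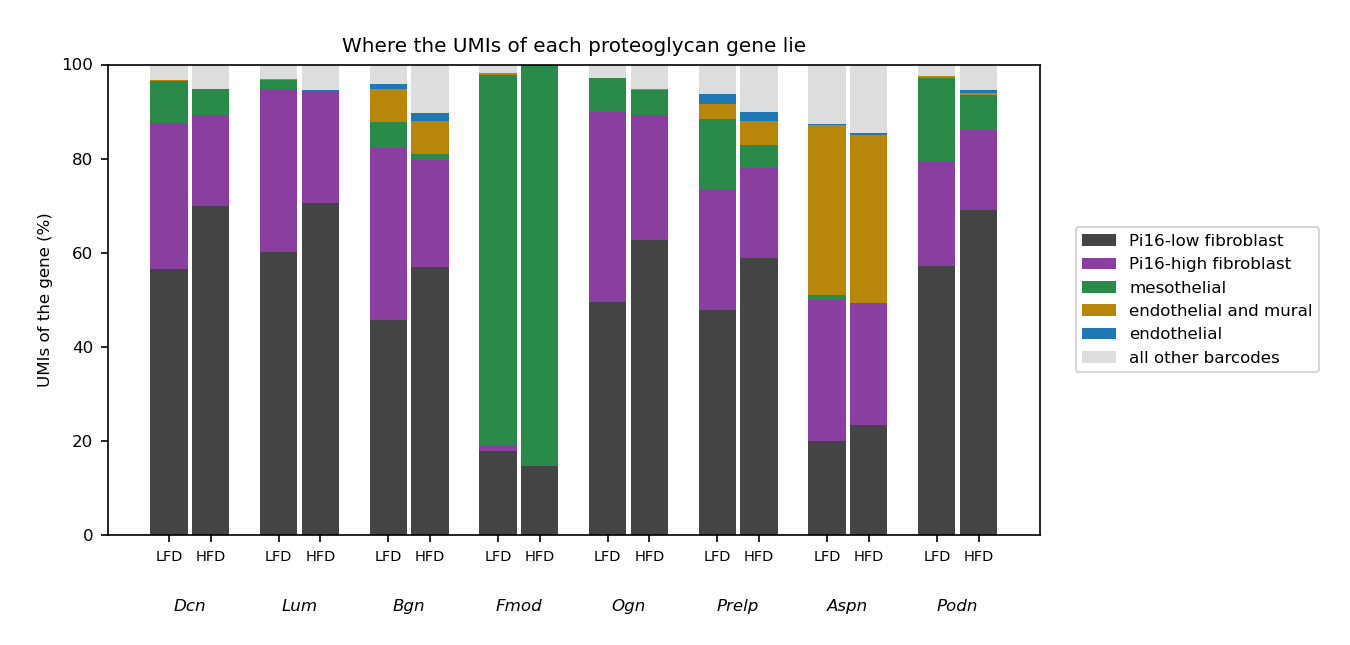
Percentage of each gene's UMIs, over all barcodes with at least 200 genes, that lay in each cell class, with 1 bar for the LFD and 1 for the HFD library. Fmod is mostly mesothelial (78.6 and 85.3%), Aspn is split between fibroblasts and the barcodes that met both vessel gates, and Lum, Bgn, Ogn, Prelp and Podn lie mostly in fibroblasts. The share of Dcn is set by the gate.

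Against endothelial barcodes, 6 of the 7 genes other than Dcn were at least 1.5-fold higher in Pi16-low fibroblasts in both libraries, with an interval that left out 1. Over all genes this held for 18.5%. The 6 were Lum, Bgn, Ogn, Prelp, Aspn and Podn, and the seventh, Fmod, had too few UMIs (under 50) in the comparison. Lum had no UMI in endothelial barcodes on LFD, so the fibroblast level was at least 137.5-fold higher there, set against a floor of 3 UMIs. Bgn was 17.4-fold higher on LFD (11.4 to 27.9) and 11.9-fold on HFD (9.295 to 15.4), and Prelp 9.28-fold (5.87 to 15.6) and 9.94-fold (6.06 to 17.5). The share of all Lum, Ogn and Podn UMIs found in endothelial barcodes was at most 0.717%.

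Immune barcodes, which should lack these genes, gave the background. Dcn stood at 39.87 CPM in macrophages on LFD (30.35 to 51.43) and 12.06 CPM on HFD (8.40 to 16.8), with UMIs in 17.03 and 10.6% of barcodes, or 3.125 and 1.57% after each was thinned to 1000 UMIs. The other 7 genes had between 0 and 3 UMIs each in 229 LFD macrophages, and between 0 and 13 in 320 HFD macrophages. The largest of these was Bgn on HFD, with 13 UMIs. The ratio of Dcn on HFD over LFD in macrophages was 0.303 (0.193 to 0.467), in a class from which barcodes with at least 10 Dcn UMIs had been left out. In this class 1060 of 7137 genes were lower on HFD by at least 1.5-fold with an interval that left out 1. The log2 ratio of Dcn, -1.72, became -0.85 with each gate taken alone, -0.91 with a Dcn gate of 20 UMIs and -2.37 with the mean over barcodes. It kept its side of the rule in all 11 settings. The class was chosen in part by Dcn, so no change is read from it.

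**Figure D2:**
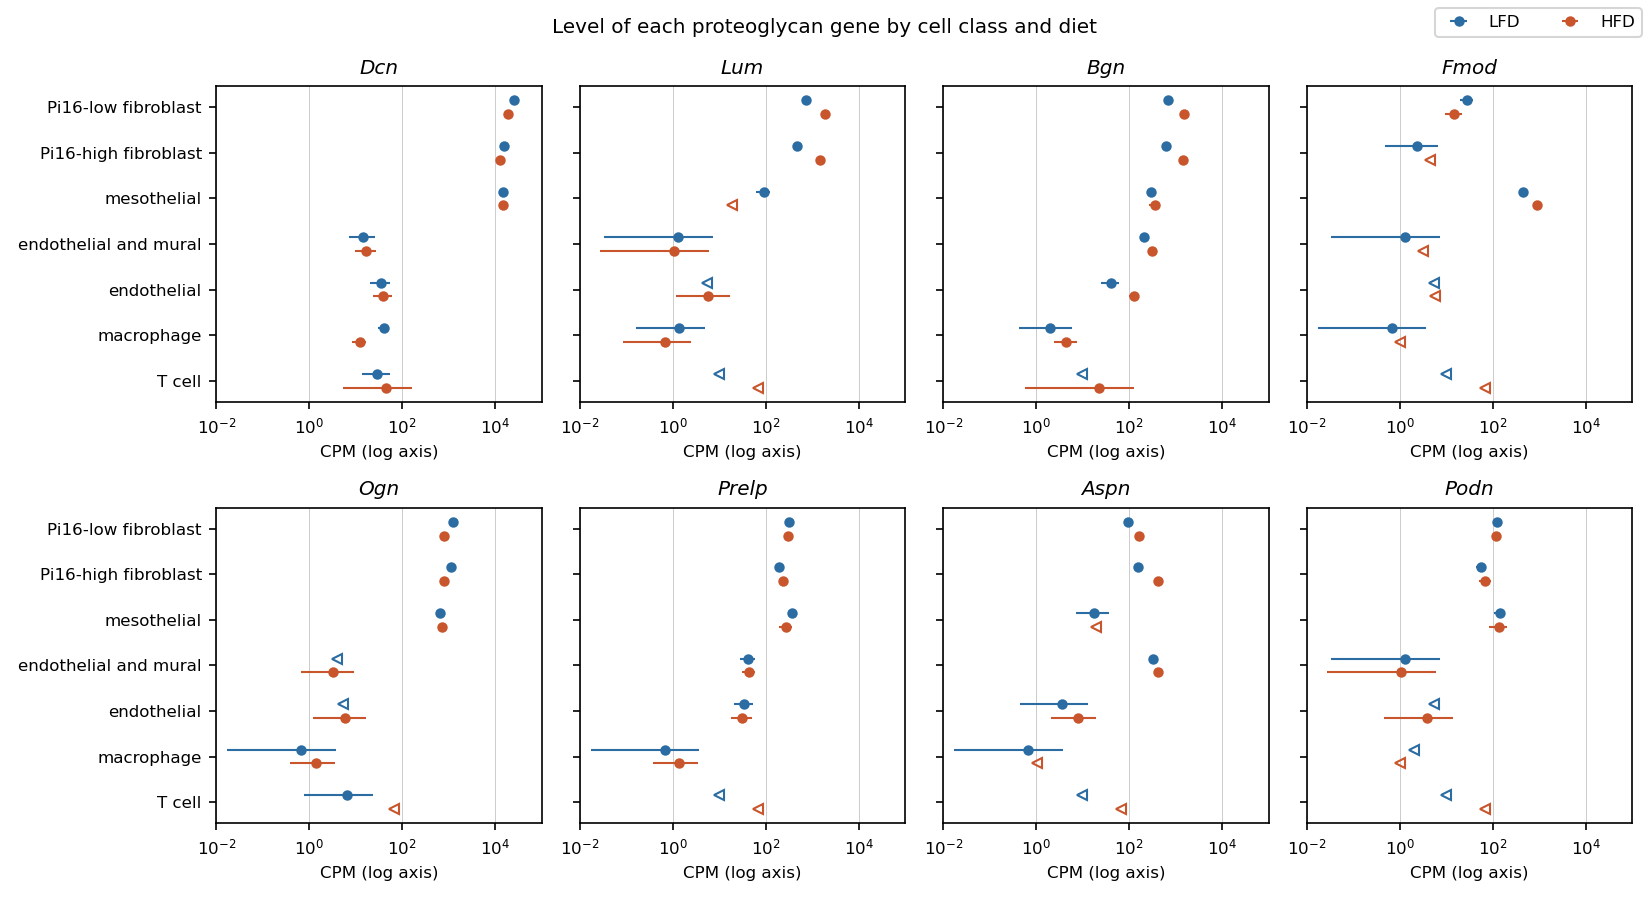
Level of each gene (CPM, log axis) in 7 cell classes on LFD and HFD, with exact Poisson 95% intervals. Open triangles mark classes with no UMI and stand at the level of 3 UMIs. Macrophage barcodes lie far below the Pi16-low fibroblasts for the 7 genes other than the gate gene Dcn, Fmod peaks in mesothelial barcodes, and Aspn is high in barcodes that met both vessel gates.

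In Pi16-low fibroblasts, 3 of the 8 genes were higher on HFD (Lum, Bgn and Aspn) and 2 were lower (Ogn and Fmod), by a rule of at least 1.5-fold with an interval that left out 1. Over the 6379 genes with at least 50 UMIs in this class, 5.14% were higher and 6.91% lower by this rule. Depth was similar, with medians of 7920 and 7559 UMIs per barcode. The 8 genes together took 2.83% of the LFD total (2.80 to 2.86%) and 2.399% of the HFD total (2.375 to 2.42%), most of it Dcn. Without Dcn the share went the other way, from 0.324% (0.315 to 0.333%) to 0.481% (0.470 to 0.492%). Marker lists named for other cells also moved in this class. The mural list stood at 278.6 CPM on LFD and 401.9 CPM on HFD, the macrophage list at 114.7 and 29.47 CPM, and the mesothelial list at 191.9 and 164.9 CPM, and their part in these results was not tested. The mural list holds Pdgfrb, which the paper places mainly in its MSC1 cluster of progenitors. On HFD the mesothelial list had 263 UMIs, none of them from Upk3b, Msln, Krt19 or Lrrn4. Its gene Wt1 had 224 UMIs in the barcodes without an Fmod UMI alone. A value of these lists here thus need not come from other cells.

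Among the class I genes, Dcn stood at 25061 CPM on LFD (24805 to 25319) and 19180 CPM on HFD (18966 to 19396). The ratio of HFD over LFD was 0.765 (0.754 to 0.777), within the 1.5-fold rule. When fibroblasts were instead gated on collagen genes, so that Dcn had no part in choosing them, Dcn stood at 25227 and 19115 CPM. Bgn, which also acts as a signal to Toll-like receptors when it is freed from the matrix, had 1014 UMIs in 200 LFD barcodes and 2419 UMIs in 205 HFD barcodes. Its level was 692.5 CPM on LFD (650.5 to 736.5) and 1517 CPM on HFD (1457 to 1578), a ratio of 2.19 (2.03 to 2.36). The shift was general across cells, as the median barcode went from 527.1 to 1279 CPM and the lower quartile from 184 to 723.6 CPM. Bgn UMIs were seen in 87.5% of barcodes on LFD and 97.6% on HFD, or 45.6% (38.5 to 52.9%) and 71.6% (64.85 to 77.65%) after thinning.

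Aspn, whose protein carries a run of aspartate residues, had 136 UMIs on LFD and 259 on HFD in Pi16-low fibroblasts. This gave 92.88 CPM (77.93 to 109.9) and 162.4 CPM (143.2 to 183.4), a ratio of 1.75 (1.415 to 2.17). Unlike Bgn it was not detected in most barcodes. The share with an Aspn UMI was 27.0% on LFD, with an interval of 21.0 to 33.7%, and 41.95% on HFD, with an interval of 35.1 to 49.0%. After thinning the shares were 6.15 and 13.2%. With the authors' own limits on genes and mitochondrial UMIs, which left 52 and 74 Pi16-low fibroblasts, the log2 ratio of Aspn fell to 0.15, below the rule.

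Of the class II genes, Lum changed most. Lum, which spaces collagen fibrils evenly in the cornea and other tissues, had 1093 UMIs on LFD and 2992 on HFD. Its level was 746.5 CPM on LFD (702.9 to 792.1) and 1876 CPM on HFD (1809 to 1945), a ratio of 2.51 (2.34 to 2.70), which ranked 39 from the top of the 6379 genes. The median barcode went from 468.8 to 1644 CPM, and the lower quartile on HFD, 895.4 CPM, lay above the LFD median. Lum UMIs were seen in 84.0% of barcodes on LFD (78.2 to 88.8%) and 99.0% on HFD (96.5 to 99.9%). After thinning the shares were 36.4% (29.65 to 43.6%) and 78.4% (72.15 to 83.9%).

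**Figure D3:**
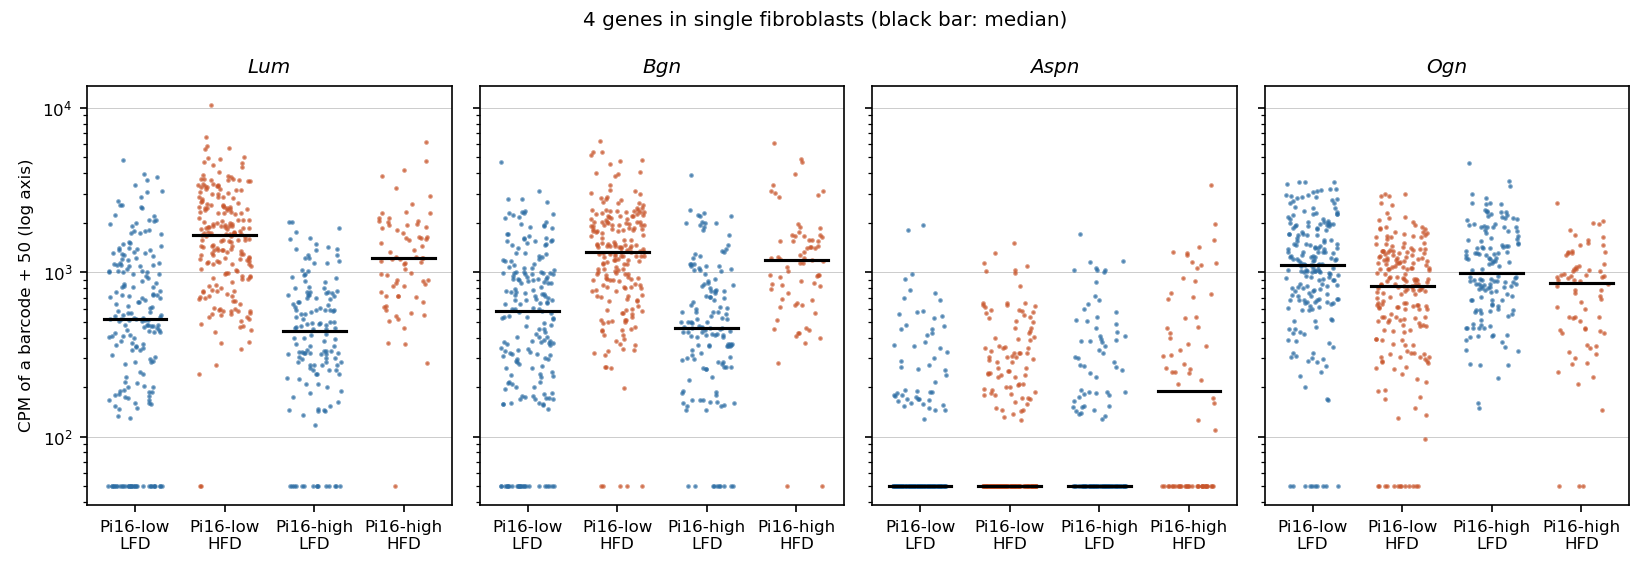
CPM of Lum, Bgn, Aspn and Ogn in each Pi16-low and Pi16-high fibroblast (log axis after 50 CPM were added), with the median as a black bar. The clouds of Lum and Bgn sit higher on HFD as a whole (Pi16-low medians 468.8 and 1644 CPM for Lum, 527.1 and 1279 CPM for Bgn), Aspn has a median of 0 in all groups but the Pi16-high fibroblasts on HFD (140.3 CPM), and Ogn sits lower on HFD.

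The other class II genes did not follow Lum. Prelp, whose protein ties collagen to basement membrane heparan sulfate, stood at 318.9 CPM on LFD (290.7 to 349.2) and 307.9 CPM on HFD (281.2 to 336.3), a ratio of 0.965 (0.849 to 1.10). Fmod, a keratan sulfate proteoglycan of tendon, had 41 UMIs on LFD and 24 on HFD, which gave 28.0 CPM (20.1 to 38.0) and 15.05 CPM (9.64 to 22.4) and a ratio of 0.537 (0.311 to 0.911). It was carried by 11 of 200 and 15 of 205 barcodes, and the 5 highest barcodes held 73.2 and 58.3% of the UMIs. When each barcode counted equally, the log2 ratio of Fmod moved from -0.90 to -0.20, short of the rule, so the value rests on few barcodes. With fibroblasts not split it was -0.59, still past 1.5-fold, but with an interval that held 1. The barcodes with at least 2 Fmod UMIs, 8 on LFD and 5 on HFD, carried Pdgfra at 315.1 and 262.4 CPM and Wt1, a mesothelial marker outside the gate, at 240.1 and 218.6 CPM. Pi16-low fibroblasts with no Fmod UMI had Pdgfra at 470.1 and 323.6 CPM and Wt1 at 156.2 and 151.9 CPM, and mesothelial barcodes had Wt1 at 305.3 and 334.5 CPM. Krt19, also outside the gate, had 1 UMI in them on LFD (15.01 CPM) and 0 on HFD. No Upk3b or Msln UMI was seen in them, but barcodes high in these gate genes had been taken out beforehand.

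Ogn, the class III gene, had 1806 UMIs on LFD and 1289 on HFD, the second highest level of the family on LFD. It stood at 1233 CPM on LFD (1177 to 1292) and 808.2 CPM on HFD (764.7 to 853.6), a ratio of 0.655 (0.610 to 0.704). The median barcode went from 1056 to 772 CPM. Ogn UMIs were seen in 95 and 93.7% of barcodes, and in 68.2% (61.2 to 74.7%) and 51.96% (44.9 to 59.0%) after thinning. The ratio lay just past the 1.5-fold rule, and the 4 settings that brought it short of the rule, with log2 ratios from -0.51 to -0.56 against -0.61, kept its direction. Set against Dcn, Lum went from 0.0298 to 0.0978 UMIs per Dcn UMI and Ogn from 0.0492 to 0.0421, so that the 2 genes changed places. Podn stood at 125.7 CPM on LFD (108.2 to 145.2) and 121.0 CPM on HFD (104.5 to 139.3), a ratio of 0.963 (0.783 to 1.185).

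Aspn and Ogn, next to each other on chromosome 13, thus stood on opposite sides of 1, with ratios of 1.75 and 0.655. Omd, the gene between them, had 8 UMIs on LFD and 13 on HFD. Lum and Dcn, neighbours on chromosome 10, had ratios of 2.51 and 0.765.

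Lum, Bgn and Aspn were also higher on HFD in Pi16-high fibroblasts. These 3 genes were higher and none of the 7 with enough UMIs was lower, against 5.56% of all genes higher and 5.86% lower. The 2 fibroblast classes come from the same libraries and so are not independent of each other. The mural marker list stood here at 148.1 and 148.8 CPM, the macrophage list at 37.03 and 41.66 CPM and the mesothelial list at 207.5 and 148.8 CPM. Lum had 627 UMIs in 144 LFD barcodes and 1005 in 72 HFD barcodes, at 483.7 CPM (446.6 to 523.1) and 1495 CPM (1404 to 1591). The ratio was 3.09 (2.795 to 3.42), and it ranked 15 from the top of 4983 genes. Bgn stood at 624.2 and 1437 CPM (ratio 2.30, 2.095 to 2.53). With the authors' limits on cells, which left 22 and 15 barcodes, the log2 ratio of Bgn was 0.21 against 1.20, while that of Lum was between 1.22 and 2.06 in every setting tried.

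Aspn showed its largest ratio here. It had 202 UMIs on LFD and 287 on HFD, at 155.8 CPM (135.1 to 178.9) and 427.0 CPM (379.1 to 479.4), a ratio of 2.74 (2.28 to 3.30). The UMIs were unevenly spread on HFD, where 40 of 72 barcodes had any and the 5 highest held 39.7%. Ogn stood at 1141 and 810.9 CPM (ratio 0.711, 0.643 to 0.785), inside the rule but on the same side as in Pi16-low fibroblasts. Dcn had a ratio of 0.814 (0.794 to 0.835), Prelp of 1.24 (1.01 to 1.52) and Podn of 1.26 (0.853 to 1.84). Fmod had 3 UMIs on LFD, all in 1 barcode, and none on HFD, which at 3 counts allows up to 4.46 CPM.

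**Figure D4:**
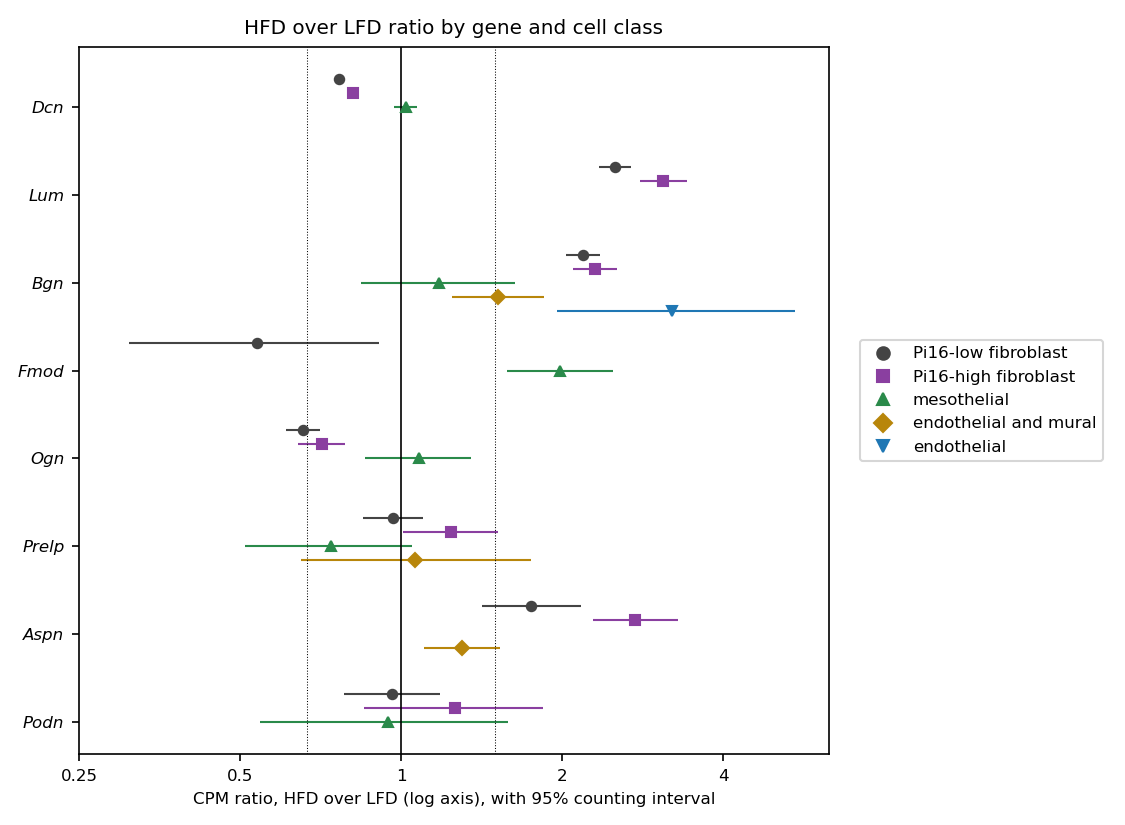
Ratio of CPM on HFD over LFD (log axis) for each gene and cell class with at least 50 UMIs over both libraries, with exact conditional binomial 95% intervals. The solid line marks 1 and the dotted lines the 1.5-fold rule. Lum, Bgn and Aspn lie to the right in both fibroblast classes, Dcn and Ogn to the left, and Fmod lies left in Pi16-low fibroblasts and right in mesothelial barcodes.

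The split of fibroblasts by Pi16, Dpp4 and Sema3c separated Aspn from Podn. Aspn was higher in Pi16-high than in Pi16-low fibroblasts in both libraries, 1.68-fold on LFD (1.34 to 2.10) and 2.63-fold on HFD (2.215 to 3.12). Podn was lower in both, with ratios of 0.442 (0.332 to 0.5835) and 0.578 (0.411 to 0.7985). Both calls were lost with the authors' limits, with thinning and with a 2-fold rule, and that of Podn also with each gate taken alone. Over all genes, 9.06% were higher and 9% lower on LFD, and 9.89% higher and 8.78% lower on HFD. Lum and Prelp were lower in Pi16-high fibroblasts on LFD, with ratios of 0.648 (0.5865 to 0.716) and 0.602 (0.514 to 0.704). On HFD their ratios were 0.797 (0.741 to 0.856) and 0.773 (0.643 to 0.926), within the rule. Bgn and Ogn stood near 1 in both libraries, with ratios from 0.901 to 0.948 for Bgn and from 0.925 to 1.003 for Ogn. For Dcn, a gate gene on both sides, the ratios were 0.621 and 0.661. Next to the split there was no step in Aspn in one direction. On LFD, Aspn stood at 143.4 CPM in the 35 fibroblasts with 2 UMIs of the splitting genes and 176.6 CPM in the 13 with 3 UMIs, and on HFD at 191.6 CPM in 18 and 68.71 CPM in 11 barcodes.

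Next to the Dcn gate there were few barcodes. On LFD, 8 barcodes had 5 to 9 Dcn UMIs and 9 had 10 to 14, with Lum at 0 and 398.5 CPM. On HFD there were 10 and 2, with Lum at 173.7 and 274 CPM. Of all barcodes with at least 200 genes, 348 on LFD and 286 on HFD had 50 Dcn UMIs or more.

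Mesothelial barcodes, named for the flat cells that line the fat pad, had a profile of their own, with high Fmod, little Aspn and little Lum. Fmod stood at 450.5 CPM on LFD (387.1 to 521.3) and 894.2 CPM on HFD (751.8 to 1056), against 28.0 and 15.05 CPM in Pi16-low fibroblasts. Fmod UMIs were seen in 27 of 33 and 13 of 14 barcodes, so here most barcodes carried the gene. The ratio of HFD over LFD was 1.985 (1.58 to 2.49), past the 1.5-fold rule, which 4.21% of genes passed upward in this class. The 5 highest of the 14 HFD barcodes held 73.4% of its UMIs, against 42.2% for 5 of 33 on LFD. Its log2 ratio of 0.99 became 0.59 with the mean over barcodes, at the edge of the rule, and 0.86 without doublets. The mesothelial marker list stood at 6607 CPM on LFD and 6806 CPM on HFD, and the mural list at 568.1 and 932.8 CPM, whose part in the Fmod result was not tested.

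Lum had 36 UMIs in the 33 LFD mesothelial barcodes, of which 5 barcodes held 94.4%, and none in the 14 HFD barcodes, which at 3 counts allows up to 19.3 CPM. Aspn had 7 UMIs, all in 1 barcode, on LFD and none on HFD. Ogn stood at 655.7 and 707.7 CPM (ratio 1.08, 0.856 to 1.35), Prelp at 365.4 and 270.2 CPM (0.7395, 0.512 to 1.05), Podn at 142.6 and 135.1 CPM (0.947, 0.545 to 1.59), and Bgn at 300.3 and 353.8 CPM (1.18, 0.840 to 1.63). Dcn had a ratio of 1.02 (0.971 to 1.07). With few barcodes these values moved with the setting, as the log2 ratio of Ogn went from 0.11 to -0.40 with the mean over barcodes, in which Bgn went from 0.24 to 0.72 and Prelp from -0.44 to -0.80, both then past the rule. The log2 ratio of Dcn went from 0.03 to 1.75 with the authors' limits.

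Bgn and Aspn were also found in the vessel barcodes. Among barcodes that met both the endothelial and the mural gate, Aspn had 245 UMIs on LFD and 397 on HFD, at 324.6 CPM (285.2 to 367.9) and 422.0 CPM (381.5 to 465.7). This was 3.495 and 2.60 times the level in Pi16-low fibroblasts. Dcn had 11 and 16 UMIs in these barcodes, from which those with at least 10 Dcn UMIs had been left out. Aspn was seen in 74.5 and 73.9% of these barcodes but in 2.04 and 3.48% of those that met the endothelial gate alone. In the few barcodes of the mural gate alone, Aspn had 32 UMIs in 5 LFD barcodes and 7 UMIs in 6 HFD barcodes.

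Bgn stood at 208 CPM (176.7 to 243.2) and 315.7 CPM (280.8 to 353.8) in the barcodes of both gates, a ratio of 1.52 (1.25 to 1.85). This passed the rule by little, and 3.45% of all genes were higher by it. The fibroblast marker list, which holds 3 collagen genes, stood here at 1092 and 1557 CPM. The macrophage list stood at 34.45 and 49.96 CPM and the list of adipocyte genes at 178.9 and 115.9 CPM. The part of these lists in the result was not tested. The ratio of Aspn was 1.30 (1.11 to 1.53), and Prelp stood at 41.07 and 43.59 CPM. Lum, Fmod, Ogn and Podn had at most 3 UMIs each in either library. In barcodes of the endothelial gate alone, Bgn had 22 UMIs on LFD and 66 on HFD, or 39.8 CPM (24.9 to 60.3) and 127.8 CPM (98.8 to 162.6). The ratio was 3.21 (1.96 to 5.46), and 3.65% of genes were higher by the rule in this class. The log2 ratio of 1.68 became 0.87 with the mean over barcodes and 1.07 with each gate taken alone. The UMIs lay in 15 of 98 and 24 of 115 barcodes, and 5 barcodes held 54.55 and 62.1% of them. The mural marker list moved with Bgn in this class, from 21 UMIs (37.99 CPM) to 42 UMIs (81.32 CPM), the macrophage list from 14 UMIs (25.33 CPM) to 32 UMIs (61.96 CPM), and the adipocyte list (Adipoq, Plin1, Cidec) the other way from 144 UMIs (260.5 CPM) to 45 UMIs (87.13 CPM). Their part in the result was not tested. The fibroblast list stood at 173.7 and 170.4 CPM. Prelp had 19 and 16 UMIs there, 34.4 and 31.0 CPM.

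Of the lists of genes that work with the family, the fibril and matrix partners had the highest median ratio in Pi16-low fibroblasts. The largest single ratio among genes with enough UMIs was that of the protease Mmp3, given below. All 13 of this list, 9 collagen genes and Eln, Fbn1, Fn1 and Thbs1, had enough UMIs, and 9 were higher and 0 lower on HFD in Pi16-low fibroblasts by the 1.5-fold rule, against the 5.14 and 6.91% of all genes given above. Their median log2 ratio was 0.73, against -0.01 over all genes. Col3a1 changed most, from 3781 to 8836 CPM (ratio 2.34, 2.265 to 2.41), followed by Col6a1 (2.05, 1.92 to 2.20), Col1a1 (1.94, 1.825 to 2.06) and Col6a3 (1.895, 1.73 to 2.07). Eln, Fn1, Fbn1 and Col5a1 stayed within the rule, with ratios of 0.957, 1.09, 1.32 and 1.29. In Pi16-high fibroblasts 9 of 13 were higher and 0 lower, against 5.56 and 5.86% of all genes, with a median log2 ratio of 0.65 against 0.02 over all genes, and Col3a1 had a ratio of 3.03 (2.895 to 3.165).

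Enzymes that build and sulfate the sugar chains gave no such shift. Of 30 listed genes, 16 had enough UMIs in Pi16-low fibroblasts. Csgalnact1 and Chpf, which start and extend chondroitin sulfate, were higher on HFD with ratios of 1.54 (1.01 to 2.38) and 1.74 (1.17 to 2.63), and Ust, a uronyl sulfotransferase, was lower at 0.562 (0.3445 to 0.903). These are 2 higher and 1 lower of 16, where 5.14 and 6.91% of all genes were, and the median log2 ratio was 0.11. In Pi16-high fibroblasts 13 were measured, 0 were higher and 2 were lower, against 5.56 and 5.86% of all genes, with a median of -0.16. Chst1, a keratan sulfate sulfotransferase, went there from 159 UMIs (122.7 CPM) to 24 UMIs (35.71 CPM), a ratio of 0.291 (0.181 to 0.449), and Papss2, which makes the sulfate donor, had a ratio of 0.517 (0.271 to 0.926). In Pi16-low fibroblasts Chst1 had 35 UMIs on LFD and 4 on HFD, too few for a call, with a ratio of 0.105 (0.027 to 0.294).

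Of 8 proteases known to cut family members, 7 had enough UMIs in Pi16-low fibroblasts, with 3 higher and 1 lower, against 5.14 and 6.91% of all genes. Mmp3 went from 27 to 177 UMIs, a ratio of 6.02 (4 to 9.39), and in Pi16-high fibroblasts from 0 UMIs, which allows 2.315 CPM at 3 counts, to 33. Mmp2 and Mmp14 had ratios of 1.63 (1.44 to 1.84) and 1.60 (1.39 to 1.86). Adamts5, an aggrecanase, was lower at 0.650 (0.605 to 0.699), from 1235 to 803.2 CPM. In Pi16-high fibroblasts only Mmp2 of 6 proteases passed the rule, at 2.13 (1.71 to 2.65), where 5.56% of all genes were higher and 5.86% lower. Among growth factors and receptors that bind the proteins, 6 were measured in Pi16-low fibroblasts. Igf1r was lower, at 0.577 (0.427 to 0.775), and 0 were higher, again against 6.91 and 5.14% of all genes. In Pi16-high fibroblasts, of 4 measured and with 5.86% of all genes lower, Tgfb2 (0.558, 0.421 to 0.731) and Igf1r (0.6045, 0.417 to 0.861) were lower.

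Of 9 further family genes only Ecm2 reached 50 UMIs in Pi16-low fibroblasts, at 164.6 CPM on LFD and 109.7 CPM on HFD, a ratio of 0.667 (0.546 to 0.813) on the edge of the rule. Epyc had 29 UMIs on LFD and 9 on HFD, and Tsku 2 and 7. Optc had 1 in each library, and Kera, Podnl1, Nyx and Chad had none in this class in either library.

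The genes closest to each member in pattern over 14 units, 7 classes in 2 libraries, were looked up among 6764 genes by the Pearson correlation of log2(CPM + 10). The classes were the Pi16-low and Pi16-high fibroblasts and the mural, endothelial, mesothelial, macrophage and T cell classes. The class that met both vessel gates was left out. The mural units held only 5 and 6 barcodes, with 32 and 7 Aspn UMIs. The units share their libraries and differ in depth, and the correlations are given as a description. Lum was closest to Tfpi2 (r = 0.998), Svep1 (0.989) and Cyp1b1 (0.989). Bgn was closest to Fstl1 (0.956), Col5a2 (0.955) and Sep15 (0.949), and Aspn to Postn (0.976), Pdgfrb (0.952) and S1pr3 (0.945). For Fmod they were Cldn10 (0.986), Nkain4 (0.983) and Chrdl1 (0.978), of which Nkain4 is a gene of the mesothelial gate, so that its pattern over the classes is set in part by the gate. For Prelp, Eln (0.9935) and Plat (0.979) are given. For Ogn they were Tmeff2 (0.993), Snhg18 (0.992) and Col4a5 (0.990), and for Podn Boc (0.993), Snhg18 (0.990) and Col4a5 (0.987).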

How the data were processed

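Stromal vascular cells of epididymal fat were loaded on the 10x Chromium 3′ platform, and the deposited tables hold UMI counts per gene and barcode that the authors made with Cell Ranger (version 3.0.2 per the file headers) on mm10, not normalised. Each diet had 1 library. The study's methods keep barcodes of 200 to 2500 genes with at most 5% mitochondrial UMIs, which leaves 294 and 352 barcodes, and here all barcodes with at least 200 genes were kept.

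A class took barcodes that met exactly 1 gate. The gates were Dcn of at least 10 UMIs, Cdh5 and Cldn5 of 3, Rgs5, Kcnj8, Abcc9 and Notch3 of 5, C1qa, C1qb and C1qc of 10, Upk3b, Msln, Lrrn4 and Nkain4 of 5 (placed before Dcn) and Cd3d, Cd3e, Cd3g and Trac of 3. Trac was not among the genes of the count tables and so added no UMI. Scrublet in scanpy 1.11.5 marked 20 LFD and 17 HFD barcodes as doublets, of which 12 and 14 lay among barcodes that met several gates, and doublets were kept. Ratios of CPM carry exact conditional binomial 95% intervals (scipy 1.17.1, numpy 2.4.6, pandas 2.3.3, Python 3.11.15), and figures were drawn with matplotlib 3.10.9. Intervals and calls were run on simulated Poisson counts. These have no spread between cells, animals or libraries, so the run does not test the calls against such spread. A gene was called where it had at least 50 UMIs, a ratio of at least 1.5 in either direction and an interval without 1. For thinning, each barcode was reduced to 1000 UMIs, which left out 94 and 86 barcodes.

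The text names all 8 members, up to 4 genes of each related list by size of change past the rule, and the 3 genes most like each member among those with at least 200 UMIs, except that 1 such gene of Prelp is not reported here. Other genes, and the class that met both vessel gates, were chosen after their values were seen. The members and lists were chosen with earlier results of these data known. Alternatives were the authors' limits on barcodes, each gate alone, a collagen gate, Dcn of at least 20 UMIs, the mean over barcodes, thinning, other totals, no doublets, centring and a 2-fold rule, and after seeing the data 2 other ways to split fibroblasts. Gene positions are from GENCODE on GRCm38.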

Additional observations from a re-analysis of the deposited data

Results flagged for a closer look

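Fmod stood on opposite sides in the 2 cell types that carry it. The log2 ratio of HFD over LFD was 0.99 in mesothelial barcodes (180 UMIs in 33 barcodes and 139 in 14) and -0.90 in Pi16-low fibroblasts (41 UMIs in 200 barcodes and 24 in 205). The mesothelial value became 0.59 with the mean over barcodes, at the edge of 1.5-fold, and 0.86 without doublets. It fell short of a 2-fold rule. The fibroblast value became -0.20 with the mean over barcodes, short of 1.5-fold, and -0.59 with fibroblasts not split, past 1.5-fold but with an interval that held 1. With 1 library per diet, the difference between the 2 ratios was not tested.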

How the results depend on the processing

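Lum and Bgn stayed higher on HFD by the rule in Pi16-low fibroblasts in all 13 settings (log2 ratios of 1.31 to 1.56 for Lum and 0.85 to 1.24 for Bgn), and no called result changed direction. Of 457 values from other settings, 122 summary values and 291 single-gene values kept their side of the rule or stayed within 1.5 times the count. The gate gene Dcn is counted in the fibroblast classes but not in the other classes or between the fibroblast classes. With the authors' limits on barcodes, 0 genes were lower in Pi16-low fibroblasts, 1 was higher and 2 lower in Pi16-high fibroblasts, 0 passed in other classes (Dcn in mesothelial barcodes did, at 1.75), and 0 were higher and 0 lower in both libraries between the fibroblast classes, while the share of the 7 genes without Dcn in Pi16-high fibroblasts had a log2 ratio of 0.04, against 0.75. Taking each gate alone gave 13 calls in other classes, against 3, and 0 genes lower in Pi16-high fibroblasts in both libraries. With the mean over barcodes, 0 genes were lower in Pi16-low fibroblasts and 5 calls came in other classes. Thinning gave 0 genes lower in Pi16-low and 1 lower in Pi16-high fibroblasts, 0 calls in other classes, 0 higher and 0 lower between the fibroblast classes, and a log2 ratio of 0.61 for the 7 genes in Pi16-low fibroblasts, against 0.57. A 2-fold rule left 0 genes lower in Pi16-low fibroblasts, 1 call in other classes, 0 higher and 0 lower between the fibroblast classes, and the 7-gene log2 ratio of 0.75 in Pi16-high fibroblasts short of the rule. Chosen after seeing the data, fibroblasts not split gave 0 genes lower and a 7-gene log2 ratio of 0.67, and fibroblasts with no UMI of Pi16, Dpp4 and Sema3c gave 1 lower. The cause of these changes was not tested, other than that the authors' limits and thinning leave fewer UMIs. No paired analysis was possible because each diet has 1 library.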
